A study of Mus musculus with 6 samples.

Results

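The cathepsins, the proteases of the lysosome, and the cystatins, their protein inhibitors, were followed in synovial fibroblasts (SFs) given amisulpride. Taken by gene name from the deposited table of 49548 genes, the set held 10 genes. These were the 8 cathepsins Ctsa, Ctsb, Ctsc, Ctsd, Ctsh, Ctsl, Ctss and Ctsz, and the 2 cystatins Cst3 and Cstb. All 10 were found once and all passed the filter on low values, which asked for normalised counts of 10 or more in 3 or more of the 6 libraries.

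SFs are connective tissue cells of the joint lining. They came from ankle joints of 8-week-old mice on a CBA C57BL/6J background that carried a human TNF transgene (hTNFtg) and develop arthritis, so both groups carried the transgene. The joints were digested with collagenase, CD45+ leukocytes were depleted at passage 1, and the cells were kept in culture. The untreated group (3 libraries) received no treatment per the labels, whereas the methods speak of vehicle, and the amisulpride group (3 libraries) received 500 μM amisulpride, a dopamine and serotonin receptor antagonist, for 48 hours. The 3 libraries of a group are biological replicates per the methods, but which mice each came from is not given in the sources used here, nor is the promoter that drives the transgene. The question was which transcripts differ between treated and untreated hTNFtg SFs.

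Most cathepsins are cysteine proteases of the papain family that are made as inactive proenzymes, tagged with mannose 6-phosphate and carried to the lysosome, where they are cut to the active form and degrade proteins. Ctsd is an aspartic protease and Ctsa a serine carboxypeptidase, so neither is a target of cystatins. Cystatin C (Cst3) is secreted and blocks cysteine cathepsins outside the cell, while cystatin B (Cstb) blocks those that leak into the cytosol. In the arthritic joint, cathepsins released by fibroblasts and macrophages take part in the breakdown of cartilage matrix.

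Values are normalised counts, that is, read counts divided by 1 factor per library and rounded. Reads came from the 3′ end of transcripts, so levels can be set side by side between genes without dividing by transcript length. The libraries held approximately 2.52 to 4.72 M reads, with the least certain estimate in untreated replicate 1, and 16851 to 18364 genes above 0. The shallowest were amisulpride replicates 3 and 2, at 2.52 and 2.94 M reads, against 3.63 to 4.72 M in untreated libraries. Amisulpride replicate 3 stood apart from the others on the first principal component, at 73.9 against -38.2 to 10.4. All 13 fibroblast markers, among them Col1a1 and Pdgfra, were above 0 in every library. Of 20 myeloid markers, 19 or 20 were also above 0 in each library despite the depletion, with summed levels of 3097 to 6017 in untreated and 2915 to 5554 in treated libraries. The leukocyte gene Ptprc, which encodes CD45, was at 38, 12 and 18 in untreated and 23, 5 and 5 in treated libraries. Of 8 lymphoid markers 7 or 8 stood at 0 in each library, Cd3e in all of them, and Pecam1 was above 0 in 1 library only. The summed endothelial level was 2 to 17.

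The level of the 10 genes spanned the upper part of the range of all genes tested, from percentile 62.1 for Ctsc to 99.5 for Ctsd. By mean over the 6 libraries, in normalised counts, the order was Ctsd (6410.7), Cst3 (5512.2), Ctsb (2817.3), Ctsl (2054.2), Cstb (1041.5), Ctsa (541.8), Ctsz (423.7), Ctss (212.2), Ctsh (172.7) and Ctsc (126.0). For most neighbours in this order the higher gene was above the next one in 6 of 6 libraries. The exceptions were Ctsd over Cst3 (4 of 6), Ctss over Ctsh (3 of 6) and Ctsh over Ctsc (5 of 6), so these pairs cannot be ordered beyond their spread. Ctsd alone gave 33.2% of the counts of the set and Cst3 28.5%. Together the 10 genes took 0.559%, 0.450% and 0.419% of the counts of untreated replicates 1, 2 and 3, and 0.569%, 0.527% and 0.372% of those of the treated ones, so the groups overlapped. The 8 cathepsins together stood at 2.39, 1.98 and 1.74 times the 2 cystatins without the drug and at 2.19, 1.72 and 1.65 times with it, again with overlap. The cathepsin sum includes Ctsd and Ctsa, which are not cystatin targets, so this ratio does not set the inhibitors against their targets alone.

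**Figure D1:**
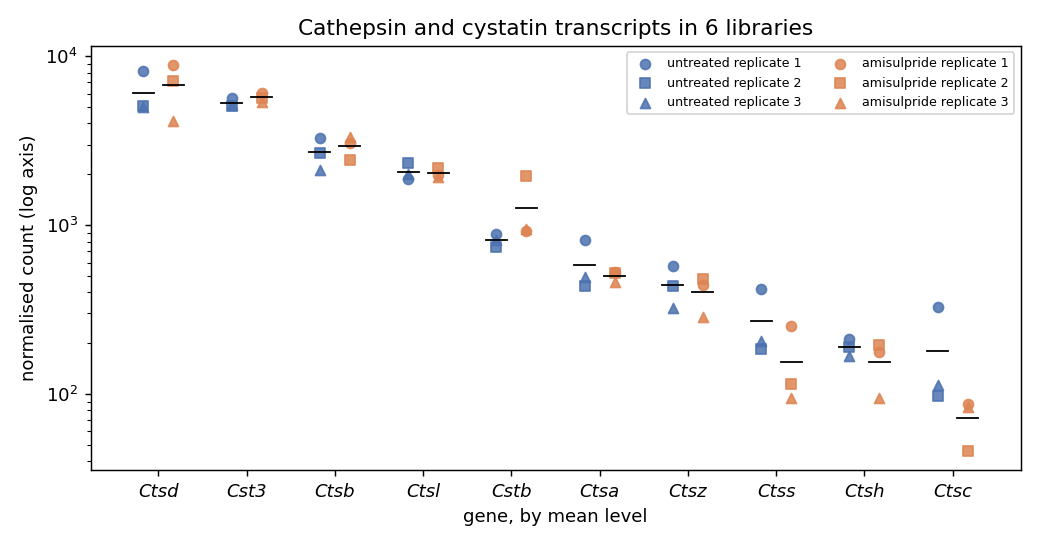
Normalised counts (log axis) of the 10 genes in 3 untreated (blue) and 3 amisulpride (orange) libraries, ordered by mean level, with marker shapes for the replicate number and black bars for group means. Ctsd and Cst3 were the most abundant, and the groups were separated for Ctsc (treated lower) and Cstb (treated higher), with overlap for the other 8 genes.

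Between the groups, 1 of the 10 genes passed an unadjusted p of 0.05, and that gene, Ctsc, was lower in treated SFs. It was also past the thresholds of the study, an absolute log2 difference of at least 1 with an unadjusted p under 0.05. Over all 12614 genes tested, 10.9% passed that unadjusted p, 5.77% lower and 5.11% higher, while 3.01% were lower and 2.69% higher past the thresholds of the study, so a count of 1 in 10 is close to the background. None of the 10 passed an adjusted p of 0.05 (limma, Benjamini-Hochberg over all genes tested), against 0.285% of all genes. By sign, 6 were lower and 4 higher, with a median log2 difference of -0.081 against 0.0016 over all genes. Same-numbered libraries deviated from their group means together, and with the replicate number as a block 2 of the 10, Ctsc and Ctss, passed the unadjusted threshold, both lower, against 7.43% lower and 7.14% higher among all genes, or 14.6% in either direction. With the block none passed an adjusted p of 0.05, against 2.08% of all genes.

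**Figure D2:**
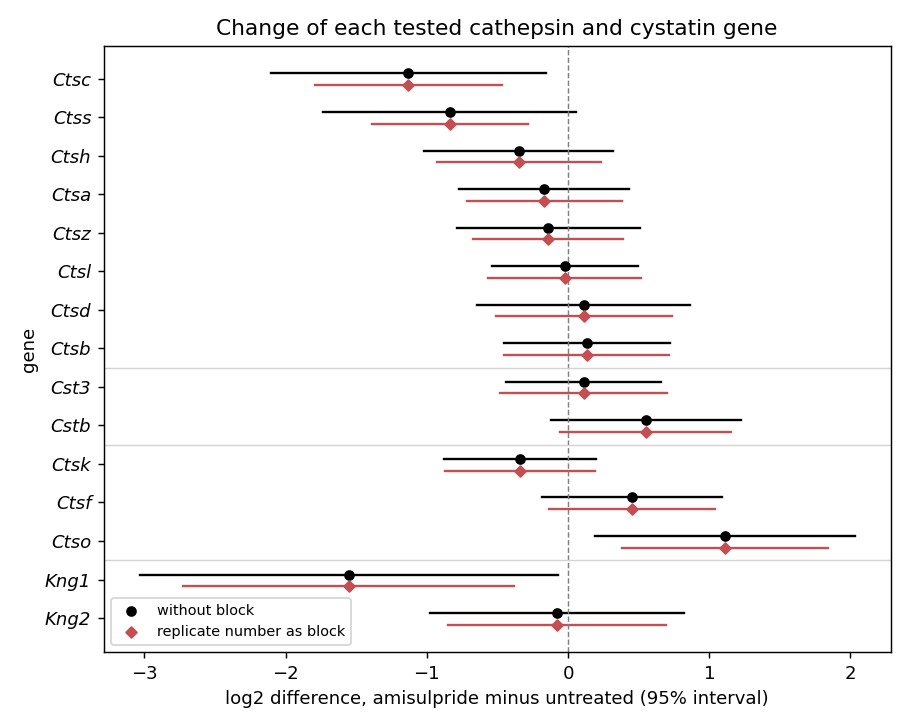
Log2 difference, amisulpride minus untreated, on the log2(normalised count + 1) scale with its 95% interval for each tested cathepsin and cystatin gene, from the fit without block (black circles) and with the replicate number as block (red diamonds); grey lines divide, from the top, the 8 cathepsins, the 2 cystatins, other cathepsins and other cystatins. Only the interval of Ctsc lies below 0 in both fits among the 10 genes, and that of Ctss lies below 0 with the block alone.

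Ctsc (ENSMUSG00000030560; chr7:88278085-88310888, plus strand, mm10 as are all gene positions here) encodes cathepsin C or dipeptidyl peptidase 1, which cuts dipeptides from protein ends and activates the serine proteases of neutrophils and mast cells. It stood at 329, 97 and 113 normalised counts in untreated replicates 1, 2 and 3 and at 87, 46 and 84 in the treated ones. All 3 treated values lay below all 3 untreated ones, which held for 8.66% of all genes tested, and untreated replicate 1 was far above the other libraries. The mean fell from 179.7 ± 129.6 to 72.3 ± 22.9 (SD, n = 3 each). The log2 difference was -1.13 ± 0.45 (SE, 95% interval -2.11 to -0.15), with an unadjusted p of 0.0270 and an adjusted p of 0.367 from limma. With the replicate block the SE was 0.31 and the adjusted p 0.0720. Within replicate numbers 1, 2 and 3 the log2 differences were -1.91, -1.06 and -0.42, lower in 3 of 3, as were 17.8% of all genes tested. Without untreated replicate 1 the log2 difference was -0.58 (adjusted p = 0.755) and without amisulpride replicate 2 it was -0.84 (adjusted p = 0.618), and in both fits it no longer passed the unadjusted threshold.

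Ctss (ENSMUSG00000038642; chr3:95526786-95556403, plus strand) encodes cathepsin S, an endopeptidase of antigen-presenting cells that trims the invariant chain of MHC class II and stays active at neutral pH. In normalised counts, the untreated libraries held 419, 185 and 206 and the treated ones 253, 115 and 95. Amisulpride replicate 1 lay above untreated replicates 2 and 3, so the groups overlapped, although within each replicate number the treated library was the lower one. The means were 270.0 ± 129.5 and 154.3 ± 86.0 (SD, n = 3 each), and the log2 difference was -0.84 ± 0.41 (SE, 95% interval -1.73 to 0.06, adjusted p = 0.494). The log2 differences within numbers 1, 2 and 3 were -0.73, -0.68 and -1.11. With the replicate block Ctss was past the unadjusted threshold, with an SE of 0.26, a 95% interval of -1.39 to -0.29 and an adjusted p of 0.113. Leaving out 1 library moved the log2 difference to between -0.47 without untreated replicate 1 and -1.26 without amisulpride replicate 1, and it was -0.56 without amisulpride replicate 3. Without untreated replicate 2 (-1.06) or amisulpride replicate 1 it passed the unadjusted threshold, with adjusted p-values of 0.563 and 0.220 in limma.

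Both genes are expressed in myeloid cells as well as in fibroblasts, and replicate 1 of both groups had the highest summed myeloid level. The myeloid markers summed to 6017, 3097 and 3768 in untreated and 5554, 2915 and 3249 in treated libraries, lower in the treated library of 3 of 3 replicate numbers. The most abundant of these markers was Lyz2, the lysozyme gene, at 3046, 1733 and 2188 in untreated and 3287, 1879 and 1394 in treated libraries. Per 100 counts of the myeloid markers, Ctsc stood at 5.47, 3.13 and 3.00 in untreated and 1.57, 1.58 and 2.59 in treated libraries. On the same scale Ctss stood at 6.96, 5.97 and 5.47 in untreated and 4.56, 3.95 and 2.92 in treated libraries, so on this ratio neither gene overlapped between groups, as was the case, in the same direction, for 3.15% of all genes tested. The ratio was chosen after the values were seen. Of the 19 myeloid markers tested, 3 were lower and 1 higher at an unadjusted p of 0.05 (median log2 difference -0.14). With the replicate block 5 were lower and 3 higher. Over all genes tested, 5.77% were lower and 5.11% higher, and with the block 7.43% and 7.14%. These shares also apply to the osteoclast and fibroblast counts below. The 2 myeloid markers past an adjusted p of 0.05 with the block, Cd14 and Spi1, were both lower (log2 differences -1.74 and -1.61). The 3 higher ones with the block were the macrophage genes C1qc, Adgre1 and C1qb (log2 differences 0.95, 0.83 and 0.75), so the list was split in direction. Csf1r, the receptor for macrophage colony-stimulating factor, stood at 114, 93 and 76 against 41, 23 and 100 (log2 difference -1.01 ± 0.46), and Cd68, a macrophage lysosomal membrane protein, at 210, 119 and 144 against 219, 122 and 256. Among 6 osteoclast markers tested 2 were lower and none higher (median -0.90), and Acp5, the tartrate-resistant acid phosphatase, stood at 473, 343 and 752 in untreated and 90, 58 and 336 in treated libraries (adjusted p = 0.165, and 0.00136 with the replicate block). With the block 3 osteoclast markers were lower at an unadjusted p of 0.05. Of the 13 fibroblast markers 1 was lower and none higher (median 0.21), and with the block 3 were lower and 2 higher. Fewer cells of a type and less RNA per cell cannot be told apart in bulk libraries, and the part of myeloid cells in the values of Ctsc and Ctss was not tested.

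**Figure D3:**
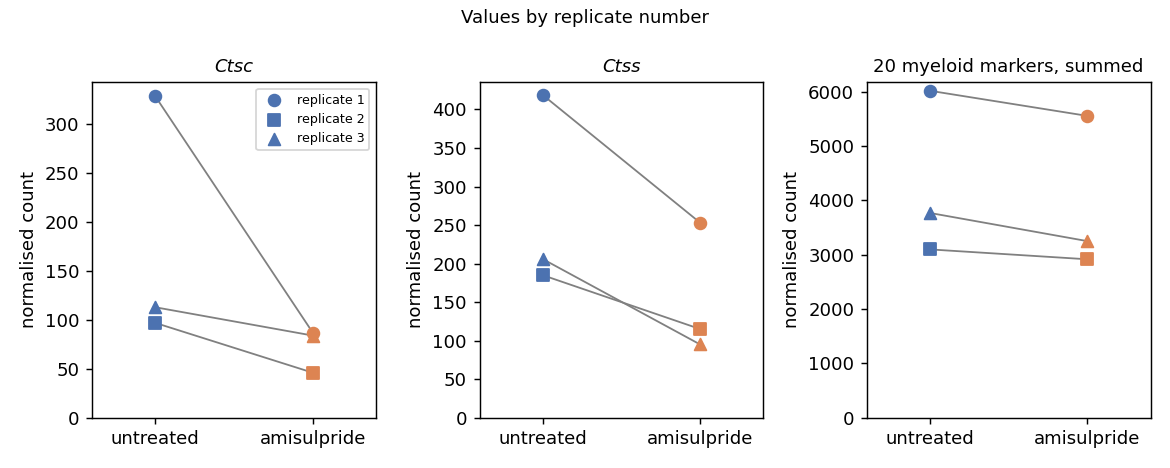
Normalised counts of Ctsc, Ctss and the sum of 20 myeloid markers in untreated and amisulpride libraries, with a grey line joining the libraries of the same replicate number. All 9 lines run downward, the myeloid sum by the smaller share, and replicate 1 has the highest value in each panel and group.

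The bases just upstream of the RefSeq starts of Ctsc and Ctss (build GRCm38.p6, 100 bases each) are shown because these had the lowest p-values among the 10 genes. Capitals mark the GC box GGGCGG or its reverse complement in both and, in Ctss, an interferon-response type element, that is GAAA, any 2 bases and GAAA again, a motif searched for after the Ctss sequence was seen.
Ctsc chr7:88277985-88278084 plus strand: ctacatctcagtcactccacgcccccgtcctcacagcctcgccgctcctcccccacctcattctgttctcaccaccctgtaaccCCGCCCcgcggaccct
Ctss chr3:95526686-95526785 plus strand: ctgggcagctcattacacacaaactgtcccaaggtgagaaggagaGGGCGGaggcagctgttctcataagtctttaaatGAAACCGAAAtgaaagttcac
The promoter table (250 bases before to 50 after each start) matched 7 of the 10 genes, with Ctsb, Ctsh and Cstb not among them. On either strand GGGCGG was found for 5 of these 7 (Cst3, Ctsc, Ctsd, Ctss and Ctsz), in 5 of their 8 promoters, and in 35.7% of 32851 promoters. The interferon-response type element was found in Ctss alone and in 3.44% of promoters.

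Ctsh (ENSMUSG00000032359; chr9:90054152-90076089, plus strand), an aminopeptidase of the same papain family, stood at 212, 189 and 169 normalised counts in untreated and 177, 194 and 95 in treated libraries. The groups overlapped, with amisulpride replicate 3 the lowest, and the log2 difference was -0.35 ± 0.31 (SE, 95% interval -1.02 to 0.32, adjusted p = 0.727 from limma). It was -0.03 without amisulpride replicate 3 and -0.54 without amisulpride replicate 2. Ctsz (ENSMUSG00000016256; chr2:174427493-174439039, minus strand), a carboxypeptidase also called cathepsin X, stood at 574, 435 and 325 in untreated and 441, 482 and 285 in treated libraries. Replicate 3 was the lowest of either group, and the log2 difference was -0.14 ± 0.30 (SE, 95% interval -0.79 to 0.51). Ctsz turned to 0.063 without untreated replicate 1 and 0.090 without amisulpride replicate 3, so its direction was not stable.

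The 2 abundant endopeptidases of the family, Ctsb and Ctsl, differed little between groups. Ctsb (ENSMUSG00000021939; chr14:63122462-63145919, plus strand) stood at 3281, 2689 and 2122 normalised counts in untreated and 3069, 2415 and 3328 in treated libraries. The highest and the lowest value both came from replicate 3, and the log2 difference was 0.13 ± 0.27 (SE, 95% interval -0.46 to 0.72). The 3′ end of Ctsb overlaps that of Fdft1, squalene synthase, by 767 bases on the opposite strand, and Fdft1 stood at 324, 479 and 403 in untreated and 107, 158 and 152 in treated libraries. Whether the counting used strand is not given in the sources used here, so reads in this overlap cannot be assigned with certainty.

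Ctsl (ENSMUSG00000021477; chr13:64363214-64370306, minus strand), the cathepsin that fibroblasts are known to secrete as a proenzyme, stood at 1884, 2320 and 2012 normalised counts in untreated and 1993, 2194 and 1922 in treated libraries. It varied least among the 8 cathepsins of the set in either group, with a coefficient of variation of 10.8% in untreated and 6.93% in treated libraries, against 72.1% for untreated Ctsc. Its log2 difference was -0.02 ± 0.23 (SE), and the 95% interval of -0.54 to 0.49 does not reach a doubling or a halving. A change within that interval was not detectable in this fit with 3 libraries in each group. The SE also draws on the spread of other genes of similar level.

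Ctsd (ENSMUSG00000007891; chr7:142375911-142388038, minus strand), the main aspartic protease of the lysosome, stood at 8170, 5103 and 5009 normalised counts in untreated and 8854, 7175 and 4153 in treated libraries. Replicate 1 was the highest of each group and amisulpride replicate 3 the lowest of all, and the log2 difference was 0.11 ± 0.34 (SE, 95% interval -0.64 to 0.87). Its direction turned under quantile normalisation (-0.04). Ctsa (ENSMUSG00000017760; chr2:164832873-164841032, plus strand), the protective protein that holds beta-galactosidase and neuraminidase 1 in a stable complex, stood at 814, 439 and 496 in untreated and 525, 519 and 458 in treated libraries. All values but that of untreated replicate 1 lay between 439 and 525, and the log2 difference was -0.17 ± 0.27 (SE, 95% interval -0.77 to 0.43). Without untreated replicate 1 it was 0.099. The partners of cathepsin A in that complex, Glb1 and Neu1, had log2 differences of -0.12 ± 0.28 and -0.17 ± 0.26 (SE). Ctsa also shares 1515 bases, its 3′ end included, with Pltp, the phospholipid transfer protein gene, on the opposite strand. Pltp stood at 43, 26 and 43 in untreated and 95, 130 and 109 in treated libraries. As for Ctsb, reads in this overlap cannot be assigned with certainty. On its own strand Ctsd shares 6757 bases, its 3′ end included, with RP23-145I16.3. That gene stood at 1, 1 and 0 in untreated and 4, 1 and 0 in treated libraries.

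Of the inhibitors, Cst3 (ENSMUSG00000027447; chr2:148871722-148875692, minus strand) was the steadiest of the 10 genes, with a coefficient of variation of 6.35% in untreated and 6.29% in treated libraries. It stood at 5683, 5043 and 5181 normalised counts in untreated and 6102, 5678 and 5386 in treated libraries, with overlap between the groups. The treated library was higher within 3 of 3 replicate numbers, as for 16.9% of all genes tested, and the log2 difference was 0.11 ± 0.25 (SE, 95% interval -0.44 to 0.66). Cstb (ENSMUSG00000005054; chr10:78425670-78427619, plus strand) stood at 885, 741 and 819 in untreated and 919, 1942 and 943 in treated libraries. All 3 treated values lay above the untreated ones, which held for 7.80% of all genes tested, but by a small margin in all but amisulpride replicate 2. The mean was 815.0 ± 72.1 in untreated and 1268 ± 583.8 in treated libraries (SD, n = 3 each), and the log2 difference was 0.55 ± 0.31 (SE, 95% interval -0.12 to 1.22, adjusted p = 0.560 from limma). It was 0.20 without amisulpride replicate 2 and 0.72 without amisulpride replicate 3, so 1 library carried most of the difference. Without amisulpride replicate 3 Cstb passed the unadjusted threshold (adjusted p = 0.341).

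Other members of both families were mostly at or near 0. Of 14 other cathepsins 8 stood at 0 in all 6 libraries, Ctse and Ctsg were at or under the floor of 3 reads (2.50 to 5.37 normalised counts), and Ctsf, Ctsk and Ctso passed the filter. A count of 0 allows up to that floor, for counting error only, since reads carried no molecular identifiers. The remaining one, Ctsw, a cathepsin of cytotoxic lymphocytes, was listed at 2, 4 and 2 without the drug and at 0 in the treated libraries. Its untreated values lay under the floors of amisulpride replicates 2 and 3, which were 4.015 and 5.367. Ctso, a little studied papain-type protease, was at 21, 68 and 26 normalised counts in untreated and 68, 86 and 68 in treated libraries. It was higher within 3 of 3 replicate numbers, with a log2 difference of 1.11 ± 0.42 (SE), past the unadjusted threshold but with an adjusted p of 0.346 in limma. Ctsf was at 230, 197 and 199 in untreated and 220, 244 and 431 in treated libraries (log2 difference 0.45 ± 0.29, SE). Ctsk, the collagen-degrading cathepsin of osteoclasts and SFs, was at 524, 506 and 743 in untreated and 482, 424 and 474 in treated libraries. Its treated values all lay below the untreated ones, as for 8.66% of all genes tested. The log2 difference of Ctsk was -0.34 ± 0.24 (SE, 95% interval -0.88 to 0.20, adjusted p = 0.660).

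Of 20 other cystatin-type genes 13 stood at 0 in all 6 libraries, and 5 others stayed too low for the filter. The 2 that passed it were the kininogens Kng1 and Kng2, which carry cystatin domains. Kng1 was at 21, 32 and 9 normalised counts in untreated and 7, 11 and 2 in treated libraries, with a log2 difference of -1.55 ± 0.68 (SE) that passed the unadjusted threshold (adjusted p = 0.433). The value of 2 lay under the floor of 3 reads in amisulpride replicate 3 (5.367). Kng2 had a log2 difference of -0.08 ± 0.41 (SE).

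The list of genes that sort and process cathepsins also held Glb1 and Neu1, the partners of cathepsin A. It showed 1 rise and no fall past the unadjusted threshold among 14 tested of 15 (median log2 difference -0.15). The one that rose was Vps35, of the retromer that returns sorting receptors from endosomes, at 114, 144 and 145 normalised counts in untreated and 138, 250 and 290 in treated libraries. Its log2 difference was 0.69 ± 0.31 (SE, adjusted p = 0.454). The 5 most abundant genes of the list all missed the threshold. Lgmn, the asparaginyl endopeptidase that cuts cathepsin proenzymes and is itself blocked by cystatin C, had a log2 difference of -0.37 ± 0.32 (SE). The mannose 6-phosphate receptors Igf2r and M6pr had -0.03 ± 0.32 and -0.21 ± 0.27, and Vps29 and the adaptor Gga1 had -0.24 ± 0.37 and -0.25 ± 0.35 on the same scale. With the replicate block Gnptab, which encodes the phosphotransferase that begins the mannose 6-phosphate tag, also passed the unadjusted threshold, at 326, 201 and 199 in untreated and 203, 134 and 140 in treated libraries (log2 difference -0.59, adjusted p = 0.294).

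The TFEB family of transcription factors binds the E-box CACGTG, mostly within TCACGTGA, near the starts of lysosomal genes. On either strand CACGTG was found for 3 of the 7 matched genes (Ctsa, Ctsd and Ctsl), in 3 of their 8 promoters, and in 7.15% of all promoters. TCACGTGA, which contains it, was found in 2 of these 8 (Ctsa and Ctsd) and in 0.974% of all promoters. The windows of 30 bases around these matches are shown, with CACGTG in capitals and each read on the strand of its gene (GRCm38.p6). All 30 bases of both Ctsa windows and of the second Ctsd window lie in annotated exons, as do 15 bases of the Ctsl window.
Ctsa chr2:164833749-164833778 plus strand: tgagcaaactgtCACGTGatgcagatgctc
Ctsa chr2:164833766-164833795 plus strand: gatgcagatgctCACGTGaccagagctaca
Ctsd chr7:142388048-142388077 minus strand: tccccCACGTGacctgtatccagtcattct
Ctsd chr7:142387908-142387937 minus strand: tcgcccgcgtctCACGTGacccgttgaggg
Ctsl chr13:64370739-64370768 minus strand: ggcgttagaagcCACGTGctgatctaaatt
A match describes letters only. The 3 genes with the E-box had log2 differences of -0.17 (Ctsa), 0.11 (Ctsd) and -0.02 (Ctsl), none past the threshold. Of the 4 genes of the family 3 passed the filter, all with negative signs, and Mitf was past the unadjusted threshold. Mitf, which also acts in osteoclasts, stood at 24, 17 and 21 normalised counts in untreated and 9, 13 and 4 in treated libraries. Its last value lay under the floor of 3 reads in amisulpride replicate 3 (5.367). Its log2 difference was -1.27 ± 0.53 (SE, adjusted p = 0.404), while Tfeb and Tfe3 had -0.54 ± 0.42 and -0.20 ± 0.30.

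For the MHC class II pathway that cathepsin S serves, 3 of 7 genes passed the filter and 1 was lower. H2-DMb1, a chain of the molecule that loads peptides onto class II, stood at 346, 210 and 224 normalised counts in untreated and 220, 146 and 70 in treated libraries. Its log2 difference was -0.95 ± 0.39 (SE, adjusted p = 0.404), lower within 3 of 3 replicate numbers. The class II transactivator Ciita stood at 0 in all 6 libraries, and Cd74, the invariant chain, at 3 to 7.

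Among 45 other lysosomal genes, all of which passed the filter, 4 were higher and none lower at an unadjusted p of 0.05, with a median log2 difference of 0.054. Scarb2, which carries glucocerebrosidase to the lysosome, stood at 798, 1015 and 951 normalised counts in untreated and 1536, 1467 and 1179 in treated libraries. Its treated values all lay above the untreated ones, as for 6 of these 45 genes and 7.80% of all genes tested. The log2 difference of Scarb2 was 0.59 ± 0.24 (SE, adjusted p = 0.385). Lipa, the lysosomal acid lipase, stood at 98, 158 and 179 in untreated and 220, 178 and 385 in treated libraries, with a log2 difference of 0.81 ± 0.34 (SE, adjusted p = 0.414). The lowest p among the lower ones belonged to Gusb (-0.42 ± 0.28), Atp6ap1 (-0.39 ± 0.29) and Dpp7 (-0.68 ± 0.55), none past the threshold. The share of higher genes, 4 of 45, stands beside 5.11% over all genes tested. Whether the cathepsins differed from the other lysosomal genes was not tested.

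**Figure D4:**
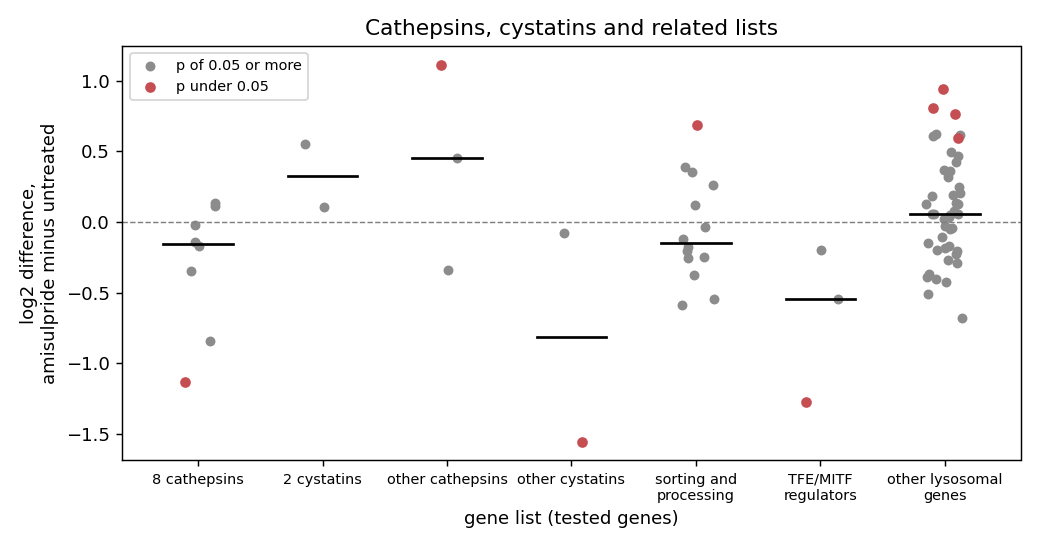
Log2 difference, amisulpride minus untreated, of the tested genes of each list (points, spread sideways for display), with red points for an unadjusted p under 0.05 and black bars for list medians. The medians of the 8 cathepsins (-0.15) and of the 45 other lysosomal genes (0.054) lie near 0, and most points of every list with more than 3 genes are grey.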

How the data were processed

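Gene expression was measured by 3′ mRNA sequencing (QuantSeq, Ion Proton) in 3 untreated and 3 amisulpride-treated hTNFtg SF cultures. Per the methods and the submitters' processing notes, reads were mapped to mm10 with TopHat2 and Bowtie2, counted per gene with GenomicRanges and normalised with DESeq through metaseqr. Versions were not given in the sources used here. The deposited values are a score: the authors scaled the read counts by 1 factor for each library and rounded the result. Another 12 columns of per-library values were not used, nor were the deposited columns of fold changes and p-values of the authors' own comparison. For the 186 gene names carried by more than 1 gene, that with the highest mean was taken.

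The value of 1 read in each library was estimated from the spacing of low values, which gave the approximate depths and the floor of 3 reads. The model was limma (version 3.58.1, under R 4.3.3), fitted to log2(normalised count + 1) with a variance trend (prior degrees of freedom 7.31), after the filter (10 or more in 3 or more libraries). This scale understates the change of low genes. Tests were two-sided and adjusted over 12614 genes. An exact permutation test with 3 libraries in each group cannot go below p = 0.1, so none was used. The fit was tested on simulated data. Same-numbered libraries deviated from their group means together (correlations 0.229, 0.240 and 0.201, against -0.149 to -0.078 for different numbers). Deviations cancel within a group, so positive values for same numbers force negative ones, on average, for different numbers. The sources used here do not state that the numbers pair the libraries. They were taken as a possible pairing, and a fit with the replicate number as a block was an alternative. Further alternatives were another pseudocount, no filter, quantile normalisation, equal totals, library weights and leaving out each library.

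The members and gene lists were chosen with earlier results of these data known. Named were all members, genes of the cathepsin, cystatin, sorting, TFEB family and class II lists with an unadjusted p under 0.05, the 5 most abundant tested genes of the first 3 of these lists, the 3 lowest p-values in each direction among other lysosomal genes, and defining cell markers. A gene that this rule names is not reported here. Gnptab, Ctse, Ctsg, Glb1, Neu1, Ctsw, Tfeb, Tfe3, Ciita, Cd74, Cd14, Spi1, C1qc, Adgre1, C1qb and the overlapping genes fall outside this rule and were named after their values were seen. For 7 of the 10 genes no other GENCODE transcript, read on its own strand, held any run of 40 bases from their last 300 bases. For Ctsa, Ctsh and Ctsl at most 1.46% of such runs were shared with any 1 gene. Reverse complements were not searched, so overlaps on the opposite strand, such as that of Ctsb with Fdft1, were not counted. Promoters came from RefSeq (GRCm38.p6) and were searched on both strands for E-boxes, the GC box, an interferon-response type element, the TATA box (TATAAA, in Ctss alone of the matched genes and 13.6% of all promoters) and the CCAAT box (in Ctsz alone and 37.4%).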

Additional observations from a re-analysis of the deposited data

How the results depend on the processing

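With 3 libraries in each group the precision of a log2 difference was limited. The p-values weigh a difference against the spread between these libraries, moderated by the spread of other genes. The depth of untreated replicate 1 was uncertain.

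None of the 10 genes passed an adjusted p of 0.05 in limma under any alternative, while the number at an unadjusted p under 0.05, 1 as reported, was 2 without the filter, under equal totals and with the replicate block (Ctsc and Ctss), 2 with library weights (Ctsc and Cstb), and 0 to 2 when 1 library was left out. It was 0 without untreated replicate 1 or without amisulpride replicate 2. The genes with an adjusted p under 0.05, 36 as reported, numbered 57 with a pseudocount of 5, 57 without the filter, 66 under quantile normalisation, 195 with library weights, 263 with the replicate block, and 0 to 120 when 1 library was left out. The count was 0 without untreated replicate 2 or 3, where 1083 and 911 genes passed the unadjusted threshold. The genes past the thresholds of the study, 719 as reported, numbered 1313 without the filter. The cause of these shifts was not tested.

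The median log2 difference of the 10 genes ranged from -0.16 to 0.081. Of the single genes, Ctsd turned to -0.036 under quantile normalisation and Ctsz to 0.10 with library weights. When 1 library was left out, the values ran from -0.12 to 0.43 for Ctsd, from -0.35 to 0.090 for Ctsz, from -0.35 to 0.099 for Ctsa, from -0.088 to 0.062 for Ctsl, from -0.029 to 0.29 for Ctsb and from -0.54 to -0.030 for Ctsh, none past the threshold. Of 120 values for single genes under the alternatives, 101 kept their direction and side of the threshold. Apart from Ctss, the replicate block changed no call among the 10 genes.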
